A study of Homo sapiens with 6 samples.

Results

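Integrins and the adaptor proteins of focal adhesions were examined in MDA-MB-231 cells, a human triple-negative breast cancer (TNBC) cell line with a mesenchymal phenotype, after silencing of the kinase NEK2. The list held 42 genes, 20 integrin subunits (12 α and 8 β) and 22 adaptors, and each was found by its symbol among the 74852 rows of the gene table. A row was tested where its mean over the 6 libraries reached 10 normalized counts, which held for 41 of the 42 genes and for 18717 rows in all. ITGB7 was not tested, with 0 to 7 reads per library. The genes were chosen by family and not by their values, with earlier results of these data known. Cells of the same line were transfected 2 times by lipofection, with control siRNAs (si-CTRL, 3 libraries) or with siRNAs that target NEK2 (si-NEK2, 3 libraries), and harvested 24 h after the second transfection according to the sample records, while the study's methods give another harvest time. The study describes triplicates and the records do not say whether these were separate cultures, so that p-values measure the spread between these libraries. The records of the si-CTRL libraries point to other sample records, and whether both groups were prepared together is not stated. Only 1 cell line and 1 pool of NEK2 siRNAs were used, so that off-target effects of the pool cannot be told apart from those of NEK2 loss, and bulk RNA cannot tell fewer cells of a kind from less RNA per cell.

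Integrins are receptors made of an α and a β subunit that span the membrane and bind the extracellular matrix or other cells. The pair sets the ligand, with separate receptors for collagen, for laminin and for ligands such as fibronectin and vitronectin that carry an RGD motif. Inside the cell talins and kindlins bind the tails of the β subunits and activate the receptor, the complex of ILK, PINCH and parvin and the actin-binding vinculin couple it to the cytoskeleton, and FAK, SRC and the CAS scaffolds pass the signal on. In mesenchymal breast cancer cells these contacts carry the traction for migration.

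The silenced gene and the depth were examined first. NEK2 had 3702, 3323 and 3290 normalized counts in the si-CTRL libraries and 284, 362 and 388 in the si-NEK2 libraries, so that it fell by 3.32 ± 0.12 on the log2 scale (limma, ± standard error, adjusted p = 1.86e-06). Reads assigned to genes ranged from 52625492 to 87454509 per library, and 1 read was worth 0.818 to 1.25 normalized counts. The first principal component (61.7% of the variance) separated the groups, while si-CTRL replicate 1 stood apart on the second (16.2%). The mesenchymal markers VIM, ZEB1, CD44 and AXL were all abundant, with a sum of 243938 to 300044 in si-CTRL and of 209255 to 222843 in si-NEK2 libraries, and ZEB1 (-0.82, adjusted p = 0.0003) and CD44 (-0.76, adjusted p = 0.0033) fell by the limma test. VIM (-0.18, adjusted p = 0.10) and AXL (-0.20, adjusted p = 0.082) did not pass it. Of 6 luminal or receptor markers, ESR1, PGR, CDH1 and EPCAM stayed at or below 15.2 normalized counts, while KRT18 (up to 25601) and ERBB2 (up to 4085) were expressed. ERBB2 was higher in si-NEK2 libraries (log2 fold change 0.53, adjusted p = 0.0074, limma) and KRT18 did not pass (-0.02, adjusted p = 0.85). The 5 leukocyte markers PTPRC, CD3E, CD79A, CD14 and SPI1 summed to 8.75 to 24.2 normalized counts in si-CTRL and to 20.8 to 39.3 in si-NEK2 libraries. Of 5 fibroblast markers, summing to 146622 to 182187 in si-CTRL and to 135071 to 154627 in si-NEK2 libraries, COL1A1 gave nearly all signal, PDGFRB had 652 to 776 normalized counts, COL3A1 rose from 34.7 to 130 (log2 fold change 1.91, adjusted p = 0.0003, limma), and DCN and LUM were at most 2.50 and 1.81.

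Silencing of NEK2 moved integrin subunits in both directions, while few adaptors passed the fold threshold. A gene was called where limma gave p of 0.05 or less on log2(normalized count + 1) and the fold change reached 1.5, and this scale makes changes at few reads look smaller than they are. Of the 41 tested members 5 rose (12.2%, against 8.23% of all tested genes) and 5 fell (12.2%, against 14.3%). The genes that rose were NEDD9, ITGAE, ITGB8, ITGA4 and ITGA2, and those that fell were ITGA9, ITGB3, ITGB2, ITGA11 and TLN2, of which ITGA9 passed the filter only through its si-CTRL libraries. Integrin subunits made up 8 of the 10, 4 in each direction among 19 tested (21.1% each, against 8.23% higher and 14.3% lower of all genes). The 22 adaptors gave NEDD9 higher and TLN2 lower (4.55% each, against the same shares). Whether these shares differ was not tested. Without a fold threshold, an adjusted p (Benjamini-Hochberg, over all tested genes) of 0.05 or less was reached by 27 members (65.9%, against 43.1%), 15 higher and 12 lower, and 17 of these differed by less than 1.5-fold. All si-NEK2 libraries lay above all si-CTRL libraries for 15 members (36.6%, against 28.2%) and below them for 14 (34.1%, against 26.9%). Many members are abundant, and the shares over all genes were not matched for abundance. The median log2 fold change was -0.09 for the members and 0.01 for all genes. How many rose and how many fell varied with the scaling. Setting each library to the same total moved the median of all genes to -0.12, and 4 members were then called higher and 7 lower, while for all genes the split went from 1541 higher and 2672 lower to 941 and 3479. Upper quartile scaling gave 1192 and 3051 for all genes and quantile normalization 1827 and 2154, with 5 higher and 6 lower members and 4 higher and 6 lower members, respectively. Without si-CTRL replicate 1, 4 members were called higher and 5 lower, against 1385 higher and 2562 lower of all 18679 genes tested in that fit.

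**Figure D1:**
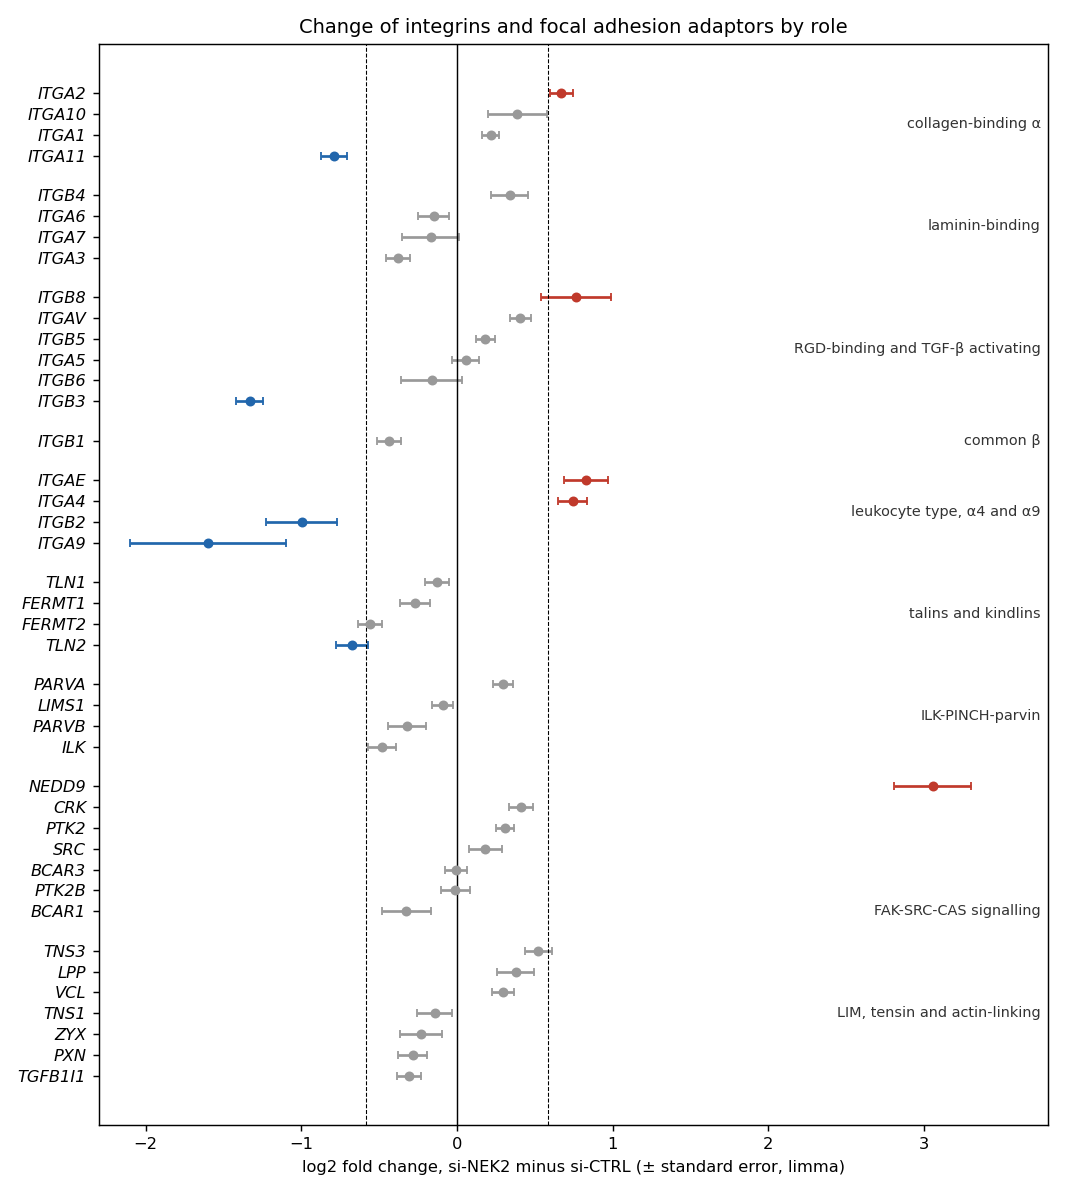
Log2 fold change of each tested member (x axis, si-NEK2 minus si-CTRL, limma), grouped by role, with bars for the standard error and dashed lines at a fold change of 1.5. Red points are called higher, blue points lower and grey points are not called, and NEDD9 at 3.06 stands far to the right of the other members, which lie between -1.60 and 0.83.

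The collagen receptor subunits moved apart. ITGA2, the α2 subunit of a receptor for fibrillar collagen (chr5:52285156-52390609, hg19), had 40806, 37849 and 43324 normalized counts in the si-CTRL libraries and 60287, 66795 and 67154 in the si-NEK2 libraries. The groups did not overlap and the mean rose 1.59-fold (log2 fold change 0.67, standard error 0.08, adjusted p = 0.0002, limma), although the fold stayed under 1.5 with equal total scaling (log2 fold change 0.54) and with quantile normalization (0.45). ITGA11, the α11 subunit that also binds fibrillar collagen and is known from fibroblasts (chr15:68594050-68724504), had 1952, 1764 and 1884 normalized counts in si-CTRL and 998, 1096 and 1141 in si-NEK2 libraries. All si-NEK2 libraries lay below the si-CTRL libraries, and 57.8% of the transcript remained (log2 fold change -0.79, standard error 0.08, adjusted p = 0.0001, limma), with values from -0.92 to -0.74 under the alternative settings. The other collagen-binding subunits differed less. ITGA1 shares its row with PELO, a gene that lies within it, and is therefore uncertain, with means of 15936 and 18528 normalized counts (log2 fold change 0.22, adjusted p = 0.0125, limma). With quantile normalization the log2 fold change of ITGA1 was 0.07. ITGA10 did not pass (means of 269 in si-CTRL and 346 in si-NEK2 libraries, adjusted p = 0.13, limma) and its groups overlapped. Of ITGA2 and ITGA11, ITGA2 had the higher level in both groups, at 5167 against 183 normalized counts per kilobase of exon in si-CTRL and 8228 against 106 in si-NEK2 cells.

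The promoter windows of the collagen receptor pair that moved in opposite directions are shown, 300 bases around the RefSeq start, most of them before it, 5′ to 3′ on the coding strand (RefSeq, GRCh38.p14). Both strands were searched for the GC box GGGCGG, the CCAAT box CCAAT, the TATA box TATAAA and the AP-1 motif TGANTCA, matches are in capitals, and none overlapped another. The ITGA2 window (chr5:52989102-52989401, plus strand) held 4 GC boxes and no other match, and the ITGA11 window (chr15:68432114-68432413, minus strand) held none of the 4 motifs.
ITGA2: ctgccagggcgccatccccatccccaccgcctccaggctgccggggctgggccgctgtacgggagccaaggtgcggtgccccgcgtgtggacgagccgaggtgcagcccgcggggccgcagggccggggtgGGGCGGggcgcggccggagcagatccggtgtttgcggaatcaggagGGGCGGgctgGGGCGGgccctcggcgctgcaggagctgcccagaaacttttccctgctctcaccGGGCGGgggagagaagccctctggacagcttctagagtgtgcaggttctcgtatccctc
ITGA11: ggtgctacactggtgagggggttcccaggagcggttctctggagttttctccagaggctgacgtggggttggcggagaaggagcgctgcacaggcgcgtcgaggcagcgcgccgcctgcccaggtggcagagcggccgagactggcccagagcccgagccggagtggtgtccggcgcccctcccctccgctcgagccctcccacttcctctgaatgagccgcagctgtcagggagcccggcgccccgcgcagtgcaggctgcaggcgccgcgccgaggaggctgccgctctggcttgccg
Both windows were rich in G and C (72.7% and 72.0%). GC boxes were found in 45% of the 35116 promoter windows of the table, CCAAT boxes in 34.6%, TATA boxes in 11.5% and AP-1 motifs in 7.71%. For the members, 70 windows of 31 genes were at hand, of which 51.4% held a GC box, 18.6% a CCAAT box, 5.71% a TATA box and 11.4% an AP-1 motif. The members without a window were ITGA3, ITGA7, ITGB4, ITGB3, ITGA9, ITGB2, FERMT1, PARVA, PTK2, PTK2B and SRC. A match is a description of letters and does not show that a factor binds.

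Laminin receptor subunits did not reach the fold threshold. ITGA3, whose α3β1 receptor binds laminin 332 and is the most abundant of this role, had 111456, 97811 and 95153 normalized counts in si-CTRL and 78509, 74673 and 80665 in si-NEK2 libraries. No library of one group overlapped the other, and 76.8% remained (log2 fold change -0.38, standard error 0.08, adjusted p = 0.0043, limma). ITGB4, which pairs with α6 in hemidesmosomes, was slightly higher at 484 ± 34 against 384 ± 49 (SD, n = 3) normalized counts (log2 fold change 0.34, adjusted p = 0.0495, limma). ITGA6 (log2 fold change -0.15, adjusted p = 0.25) and ITGA7 (-0.17, adjusted p = 0.50, and 0.01 with quantile normalization) did not pass, and their groups overlapped.

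Among subunits of RGD-binding receptors the partners of αv differed in direction. ITGB3, the β3 subunit of the vitronectin receptor αvβ3 (chr17:45331205-45518675), had 2201, 2083 and 2270 normalized counts in the si-CTRL libraries and 800, 854 and 952 in the si-NEK2 libraries. All si-NEK2 libraries were far below, and 39.8% remained (log2 fold change -1.33, standard error 0.09, adjusted p = 1.53e-05, limma). The row is shared with the neighbouring EFCAB13, so that the value is uncertain for either gene. ITGB8, the β8 subunit of a receptor that releases TGF-β from its latent complex (chr7:20370325-20455381), had 104, 178 and 201 normalized counts in si-CTRL and 271, 257 and 264 in si-NEK2 libraries. Its lowest si-NEK2 library was above the highest si-CTRL library, and the mean rose 1.64-fold (log2 fold change 0.76, standard error 0.22, adjusted p = 0.023, limma). si-CTRL replicate 1 was the lowest library, and without it the log2 fold change was 0.48 (adjusted p = 0.0081), under the fold threshold. Over the fits with each library left out the adjusted p of ITGB8 reached 0.072 (limma). A row without a symbol that overlaps the start of ITGB8 went from 54.0 to 91.0 normalized counts. ITGAV itself was higher at 35184 ± 1969 against 26508 ± 1100 (SD, n = 3) normalized counts (log2 fold change 0.41, adjusted p = 0.0014, limma), as was the β5 subunit ITGB5 (0.18, adjusted p = 0.035), both under 1.5-fold. Over the alternative settings the log2 fold change of ITGB5 went down to 0.05. ITGB6, whose αvβ6 receptor also activates TGF-β, did not pass (means of 92 in si-CTRL and 82 in si-NEK2 libraries, log2 fold change -0.16, and 0.06 with quantile normalization). ITGA5, the α subunit of the fibronectin receptor α5β1, had 81527, 70098 and 67844 normalized counts in si-CTRL and 74466, 72014 and 81418 in si-NEK2 libraries. These groups overlapped (log2 fold change 0.06, standard error 0.09, adjusted p = 0.63, limma), and the sign turned under upper quartile (-0.01), equal total (-0.07) or quantile (-0.19) scaling.

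Counted per length of exon and without the β1 partner, β5 made up most of the β subunits that pair with αv. Its share was 81.9% ± 0.28 (SD, n = 3) in si-CTRL and 91.8% ± 0.45 in si-NEK2 libraries, while that of β3 went from 16.9% ± 0.20 to 6.62% ± 0.41. In each library of si-CTRL the β3 share lay between 16.7% and 17.1%, and in each library of si-NEK2 between 6.29% and 7.08%, so that the groups were well apart. The shares of β6 (0.666% and 0.585%) and β8 (0.592% and 0.959%) were small in both groups. These are shares of RNA, and the shared row of ITGB3 bears on them.

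**Figure D2:**
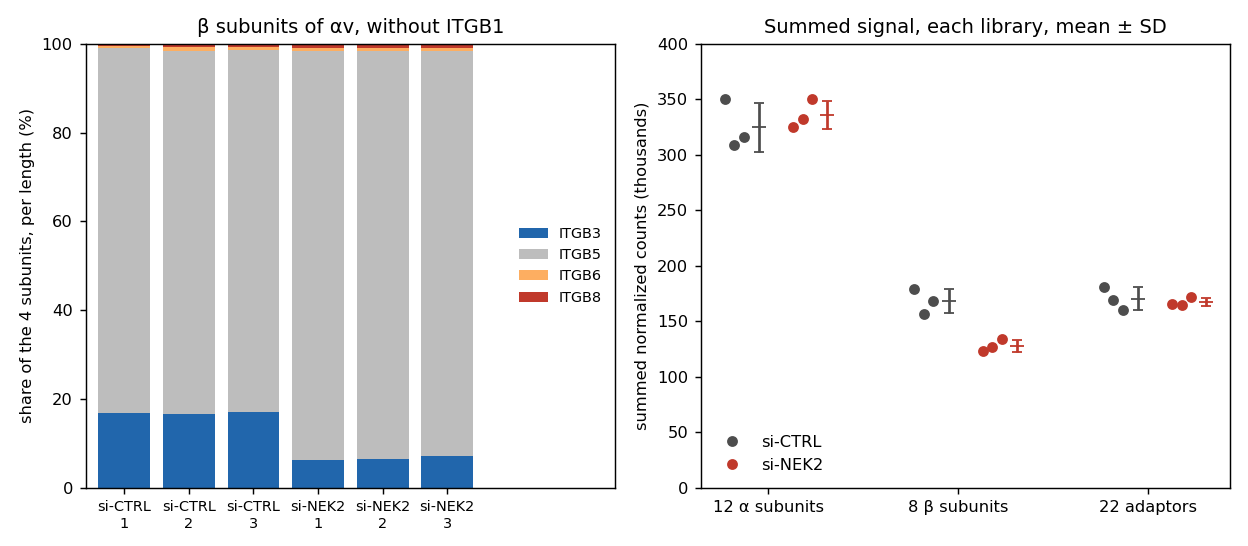
Left, share of ITGB3, ITGB5, ITGB6 and ITGB8 among these 4 subunits per length (y axis, %) in each library; the blue ITGB3 part shrinks from 16.9% to 6.62% on average. Right, summed normalized counts (y axis, scaled as labelled) of 12 α subunits, 8 β subunits and 22 adaptors in each library with mean ± SD (n = 3); the β sum lies lower in all si-NEK2 libraries, and the direction of the α sum turns under each of the 3 other scalings.

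ITGB1, the β1 subunit shared by most α subunits of the list, was the most abundant member. It had 165765, 143926 and 154695 normalized counts in si-CTRL and 109857, 113257 and 119781 in si-NEK2 libraries, with no overlap. Of the transcript 73.8% remained (log2 fold change -0.44, standard error 0.07, adjusted p = 0.0017, limma), a fold under 1.5. The sum over the 8 β subunits, most of it ITGB1, went from 168314 ± 11218 to 128047 ± 5385 normalized counts (SD, n = 3; exact two-sided permutation test p = 0.1, the smallest that 3 against 3 libraries allow). The sum over the 12 α subunits was 324912 ± 22043 in si-CTRL and 336005 ± 12833 in si-NEK2 cells (exact permutation p = 0.5), and its direction turned under each of the 3 other scalings. ITGB1 made up 92.8% ± 0.33 of the β subunits per length in si-CTRL and 90.4% ± 0.17 in si-NEK2 libraries (SD, n = 3).

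The subunits that are best known from leukocytes, with the related α4 and α9, included 2 genes called higher, ITGA4 and ITGAE, and 2 called lower, ITGB2 and the sparsely read ITGA9 (8.23% and 14.3% of all tested genes were called in these directions). ITGA4, whose α4β1 receptor binds fibronectin and VCAM1 (chr2:182321619-182403655), was the most abundant of them. It had 3365, 4319 and 3767 normalized counts in si-CTRL and 6080, 6522 and 6476 in si-NEK2 libraries. The groups did not overlap and the mean rose 1.67-fold (log2 fold change 0.74, standard error 0.09, adjusted p = 0.0004, limma). ITGAE, the αE subunit that binds E-cadherin together with β7 (chr17:3617920-3704544), had 895, 1286 and 1290 normalized counts in si-CTRL and 2187, 2036 and 1875 in si-NEK2 libraries. It rose 1.76-fold (log2 fold change 0.83, standard error 0.14, adjusted p = 0.0018, limma), with no overlap between the groups. The gene GSG2, which encodes the kinase haspin and lies within ITGAE, had a row of its own with 850 and 1039 normalized counts (log2 fold change 0.29, adjusted p = 0.062). Both the partner ITGB7 (0 to 7 reads) and the ligand E-cadherin (CDH1, at most 5.42 normalized counts) were near 0.

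ITGB2, the common β subunit of leukocyte integrins (chr21:46305871-46348788), fell. It had 130, 104 and 174 normalized counts in si-CTRL and 81.8, 56.0 and 62.9 in si-NEK2 libraries. With no overlap between groups, 49.3% remained (log2 fold change -1.0, standard error 0.23, adjusted p = 0.0074, limma). The antisense ITGB2-AS1, which overlaps its start, went from 150 to 44.5 normalized counts (log2 fold change -1.72, adjusted p = 0.0003), and the strand setting of the count is not given in the sources used here, so that the pair may share reads. ITGA9, which pairs with β1 as a receptor for tenascin-C and osteopontin (chr3:37493606-37865003), had only 18, 27 and 27 reads in si-CTRL and 16, 3 and 10 in si-NEK2 libraries. In normalized counts these were 22.5, 26.2 and 25.7 against 13.1, 2.71 and 10.7, with no overlap. Limma gave a log2 fold change of -1.60 with a standard error of 0.50 (adjusted p = 0.031), but ITGA9 passed the filter only through its si-CTRL libraries, and without si-NEK2 replicate 2 the value was -1.0. Over the fits with each library left out the adjusted p of ITGA9 reached 0.078 (limma). The antisense ITGA9-AS1 overlaps it with 32.8 and 21.1 normalized counts. Of the leukocyte markers, PTPRC had 2.50 to 25.4 and CD14 up to 11.7 normalized counts over the 6 libraries, levels like those of ITGA9, and the sum of the 5 markers was 8.75 to 24.2 in si-CTRL and 20.8 to 39.3 in si-NEK2 libraries. Their part in these results was not tested.

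**Figure D3:**
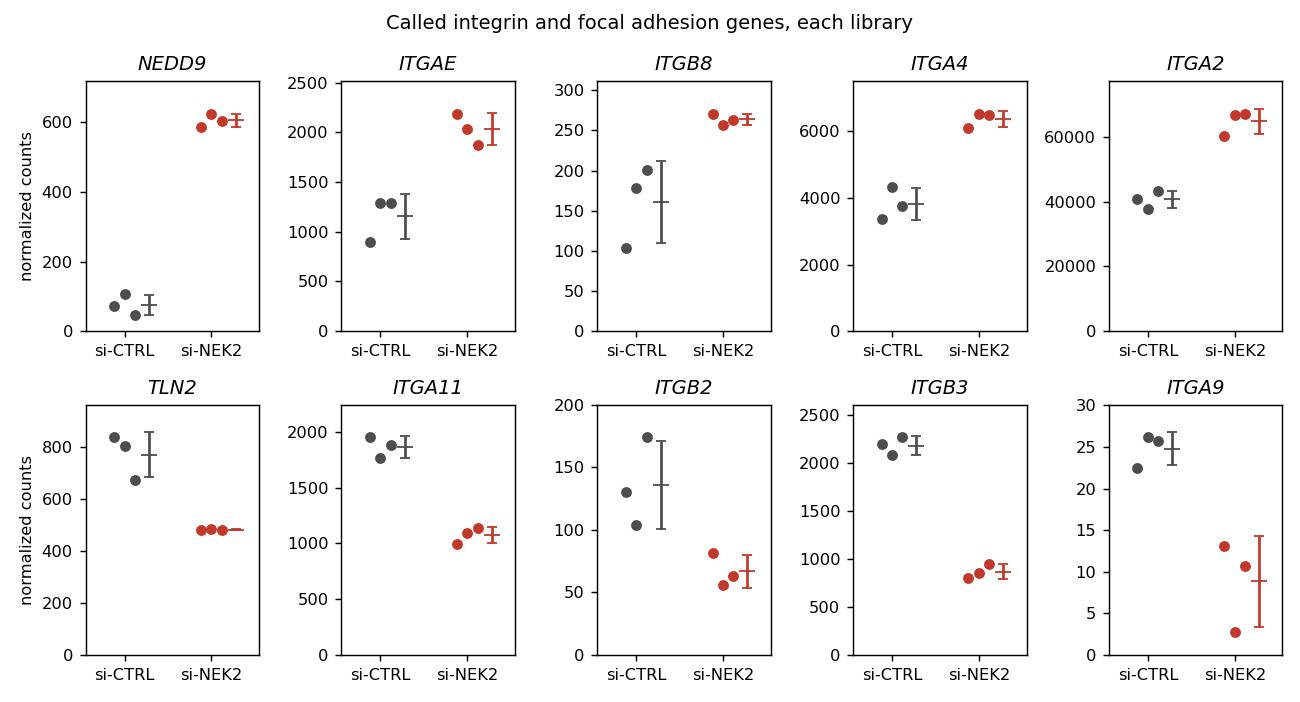
Normalized counts (y axes, each from 0) of the 10 called members in each of 3 si-CTRL (grey) and 3 si-NEK2 (red) libraries, with mean ± SD beside the points. In every panel the groups lie apart, with 8.0-fold between the means of NEDD9 and as few as 3 reads in a library of ITGA9.

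Talins and kindlins, which bind the β tails and activate the receptor, all had negative fold changes. TLN2, the less abundant talin (chr15:62682749-63136830), had 839, 804 and 675 normalized counts in si-CTRL and 480, 484 and 482 in si-NEK2 libraries. The groups did not overlap and 62.4% remained (log2 fold change -0.67, standard error 0.10, adjusted p = 0.001, limma). TLN1, the main talin, had 46564, 49527 and 41434 normalized counts in si-CTRL and 41920, 39960 and 43795 in si-NEK2 libraries. Its groups overlapped and it did not pass (log2 fold change -0.13, adjusted p = 0.23, limma). Kindlin-2, encoded by FERMT2, narrowly missed the fold threshold. It went from 21193 ± 2174 to 14346 ± 280 normalized counts (SD, n = 3), or 67.7% (log2 fold change -0.56, standard error 0.08, adjusted p = 0.0007, limma), and it was called with upper quartile scaling (-0.62), under equal total or quantile scaling (-0.69 in both) and without si-CTRL replicate 2 or 3 (-0.60 in both). Kindlin-1, encoded by FERMT1, was lower by less (log2 fold change -0.27, adjusted p = 0.04996, limma). Over the fits with each library left out the adjusted p of FERMT1 reached 0.17 (limma). The tested members of this role therefore comprised 1 that fell, 2 that passed the adjusted p alone and 1 that did not pass. Of all tested genes 14.3% were called lower and 43.1% passed the adjusted p in either direction.

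The complex of ILK, PINCH and parvin, which links β tails to actin, had no called member. PARVA, which encodes α-parvin and is the most abundant of these genes, had 3196, 3338 and 3236 normalized counts in si-CTRL and 3917, 4174 and 3888 in si-NEK2 libraries. Without overlap between the groups, the log2 value differed by 0.29 (standard error 0.06, adjusted p = 0.0061, limma). ILK, the pseudokinase at its centre, was lower at 71.6% of si-CTRL (log2 fold change -0.48, adjusted p = 0.0024, limma) and was called with equal total scaling (-0.61). β-parvin (PARVB, log2 fold change -0.32, adjusted p = 0.062) and PINCH1 (LIMS1, -0.09, adjusted p = 0.30) did not pass, although no si-NEK2 library of either reached the si-CTRL libraries.

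In the pathway of FAK, SRC and the CAS scaffolds, NEDD9 rose more than any other member. NEDD9 encodes HEF1, a scaffold of the CAS family that FAK and SRC phosphorylate and that is known from migration and metastasis. Its row (GSHG0026307, chr6:11183532-11382581, hg19) had 73.7, 106 and 47.5 normalized counts in the si-CTRL libraries and 587, 624 and 604 in the si-NEK2 libraries. In reads these were 59, 109 and 50 against 717, 691 and 566, so that every si-NEK2 library held several times the reads of any si-CTRL library. The mean rose 8.0-fold, from 75.6 ± 29.1 to 605 ± 19 (SD, n = 3), which is 3.06 on the log2 scale (standard error 0.25, adjusted p = 4.13e-05, limma). Leaving out each library gave log2 values between 2.76 and 3.33, the lowest without si-CTRL replicate 3.

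NEDD9 has several annotated starts, and 2 of its promoter windows are shown because it changed most (RefSeq, GRCh38.p14, minus strand, 5′ to 3′, matches to the same motifs on either strand in capitals). The downstream window (chr6:11232619-11232918) held 2 GC boxes and 1 CCAAT box, and the upstream window (chr6:11382261-11382560) held none of the 4 motifs.
NEDD9 downstream start: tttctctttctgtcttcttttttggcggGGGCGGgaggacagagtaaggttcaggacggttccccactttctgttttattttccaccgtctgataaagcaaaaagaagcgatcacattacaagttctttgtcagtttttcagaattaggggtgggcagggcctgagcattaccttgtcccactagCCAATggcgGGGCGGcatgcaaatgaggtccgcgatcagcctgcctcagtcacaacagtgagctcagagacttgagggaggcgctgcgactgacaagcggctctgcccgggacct
NEDD9 upstream start: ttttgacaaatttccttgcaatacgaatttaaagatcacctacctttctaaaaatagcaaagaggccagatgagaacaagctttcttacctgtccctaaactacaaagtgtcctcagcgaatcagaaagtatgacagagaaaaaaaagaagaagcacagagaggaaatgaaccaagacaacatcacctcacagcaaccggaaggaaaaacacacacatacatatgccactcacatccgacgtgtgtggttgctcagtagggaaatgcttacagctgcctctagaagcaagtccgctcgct
The G and C content was 52.7% in the downstream and 42.3% in the upstream window. A further window that overlaps the upstream one held no match either. Gene-level values do not show which start was used.

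BCAR1, which encodes p130CAS, the founding member of the same family, did not pass. It had 4817, 4388 and 4954 normalized counts in si-CTRL and 4640, 4016 and 2864 in si-NEK2 libraries, with overlap between the groups (log2 fold change -0.32, standard error 0.16, adjusted p = 0.13, limma). The NEDD9 share of the signal of both genes, in normalized counts, went from 1.60% ± 0.70 to 14.0% ± 3.1 (SD, n = 3; exact two-sided permutation test p = 0.1, the smallest possible). Per kilobase of exon BCAR1 remained the more abundant of the pair, at 619 against 79.1 normalized counts in si-NEK2 cells and 761 against 9.89 in si-CTRL cells.

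Of the members of this role NEDD9 alone was called, and PTK2, CRK, SRC, PTK2B, BCAR3 and BCAR1 were not. PTK2, which encodes FAK and is the most abundant gene of this role, had 16732, 17112 and 17055 normalized counts in si-CTRL and 20327, 21494 and 21313 in si-NEK2 libraries. Its groups were apart by 0.31 on the log2 scale (standard error 0.06, adjusted p = 0.0026, limma). CRK, the adaptor that binds phosphorylated CAS proteins, was higher by 0.41 (adjusted p = 0.0024, limma). SRC (log2 fold change 0.18, adjusted p = 0.20), the FAK relative PTK2B (-0.01, adjusted p = 0.94) and the CAS-binding BCAR3 (-0.01, adjusted p = 0.96) did not pass. PTK2B was at 0.13 with quantile normalization, and neither PTK2B nor BCAR3 kept its sign when each library was left out. Outside the members, and named after their values were seen, the CRK relative CRKL was called higher (log2 fold change 0.68, adjusted p = 9.28e-05, limma; under 1.5-fold with equal total scaling) and the SRC family kinase FYN lower (-0.63, adjusted p = 0.0003). The SRC family kinases LYN (0.54, adjusted p = 0.0005) and YES1 (0.48, adjusted p = 0.0008) went the other way, both under 1.5-fold.

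The LIM proteins, tensins and vinculin held no called member. VCL, which encodes vinculin, the link from talin to actin, had 32343, 29555 and 29504 normalized counts in si-CTRL and 35408, 36686 and 39988 in si-NEK2 libraries. All si-NEK2 libraries were higher (log2 fold change 0.29, standard error 0.07, adjusted p = 0.0099, limma). The adjusted p of VCL did not stay at 0.05 or less under all alternative settings, where its log2 fold change went down to 0.15. TNS3, an actin-binding tensin, had the largest difference of this role, from 2338 ± 241 to 3352 ± 110 normalized counts (SD, n = 3; log2 fold change 0.52, adjusted p = 0.0014, limma), and was called without si-CTRL replicate 2 (0.60). LPP, a zyxin relative, was higher by 0.38 (adjusted p = 0.031), and its overlapping antisense LPP-AS2 fell from 1317 to 680 normalized counts (log2 fold change -0.95, adjusted p = 6.71e-05). Paxillin (PXN, log2 fold change -0.29, adjusted p = 0.040) and its relative Hic-5 (TGFB1I1, -0.31, adjusted p = 0.012) were lower. ZYX (-0.23, adjusted p = 0.20) and TNS1 (-0.14, adjusted p = 0.34, and 0.02 with quantile normalization) did not pass. The sum over the 22 adaptors was 170323 ± 10240 in si-CTRL and 167236 ± 3743 normalized counts in si-NEK2 cells (SD, n = 3; exact permutation p = 0.8), and without si-CTRL replicate 1 its difference turned from -3087 to 2218.

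Several members are overlapped in position by another listed gene with reads, and 10 have such a neighbour. Beside those given above, these were TAF10 at ILK (4598 and 4268 normalized counts in si-CTRL and si-NEK2), CERKL // NEUROD1 at ITGA4 (57.2 and 62.7), GALK1 at ITGB4 (847 and 786), PXN-AS1 at PXN (126 and 130), CREB3 at TLN1 (4336 and 5045) and FAM131B at ZYX (256 and 67.1). FAM131B fell (log2 fold change -1.93, adjusted p = 9.8e-05, limma) while the far more abundant ZYX did not pass.

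Levels were compared between genes per kilobase of exon (GENCODE 29 lengths, found for all 42 genes). In si-CTRL cells ITGB1 led with 39388 ± 2779 normalized counts per kilobase (SD, n = 3), followed by ITGA3 (20760 ± 1789), ITGA5 (16462 ± 1651) and ITGA6 (10254 ± 1400). In si-NEK2 cells ITGB1 still led at 29084 ± 1283, while ITGA5 (17094 ± 1098) and ITGA3 (15947 ± 621) lay within their spread of each other and ITGA2 (8228 ± 491) came close to ITGA6 (9189 ± 464). As a share of the 12 α subunits per length, ITGA3 went from 35.0% ± 0.79 to 27.0% ± 0.83 and ITGA2 from 8.75% ± 0.81 to 13.9% ± 0.66, while ITGA5 was at 27.8% and 28.9%. Among adaptors FERMT2 (5992 ± 615), TLN1 (5196 ± 464), ZYX (4775 ± 1027) and VCL (4552 ± 243) stood highest per kilobase in si-CTRL cells. TLN1, ZYX and VCL lay close to each other against their spread, while FERMT2 lay above VCL by more than their SDs together. In si-NEK2 cells VCL (5582 ± 353) stood above TLN1 (4748 ± 217), FERMT2 (4056 ± 79) and ZYX (4013 ± 273). The called members other than ITGA2 were of middle or low level, from 3.07 for ITGA9 to 829 for ITGA4 normalized counts per kilobase in si-CTRL cells.

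**Figure D4:**
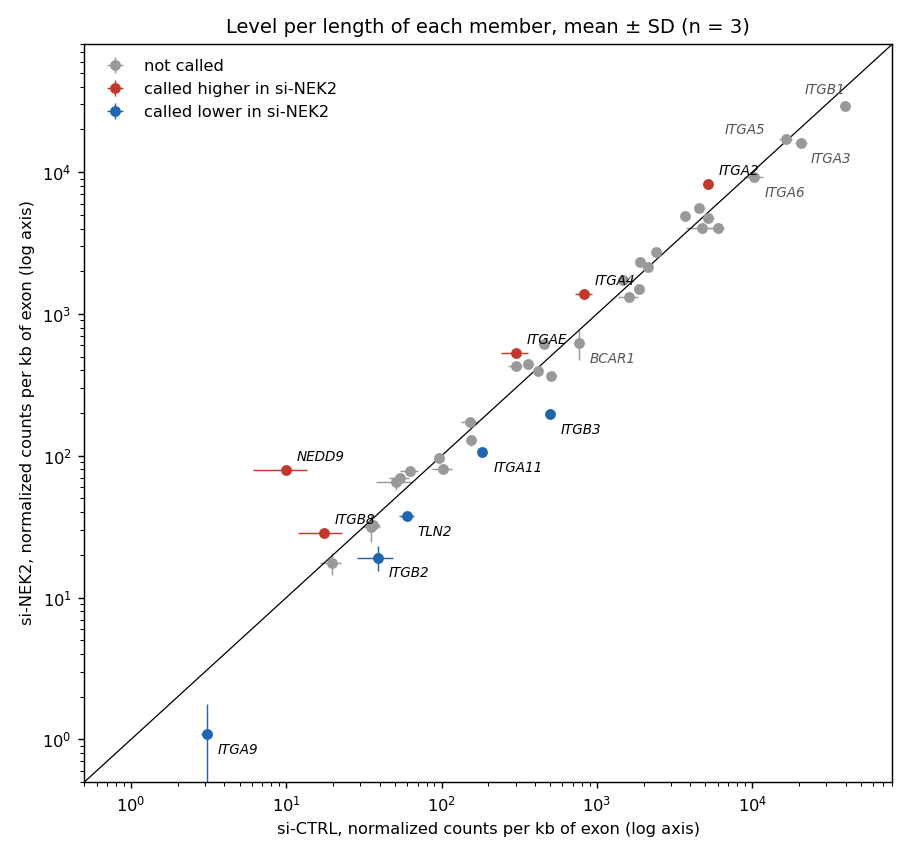
Mean normalized counts per kilobase of exon of each tested member in si-CTRL (x axis, log) and si-NEK2 cells (y axis, log), bars for the SD (n = 3), red for members called higher and blue for members called lower. Points on the diagonal have equal means; NEDD9 (9.89 to 79.1) lies farthest above it, and ITGB1, at the top right, lies below it at 39388 and 29084.

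Other adhesion genes and the ligands of integrins were counted in the same way. Of 76 further adhesion genes 68 were tested, of which 5 rose (7.35%, against 8.23% of all genes) and 9 fell (13.2%, against 14.3%). These counts varied with the scaling, with 2 higher and 11 lower under equal total scaling and 4 higher and 6 lower after quantile normalization. For all genes these settings gave 941 higher and 3479 lower, and 1827 higher and 2154 lower, respectively. The largest changes were those of ITGAX, the α partner of β2 in a leukocyte integrin, from 309 to 45 normalized counts (log2 fold change -2.74, adjusted p = 1.11e-05), and of TES, a LIM protein of focal adhesions, from 1454 to 3191 (1.13, adjusted p = 9.15e-06). SDC4, a heparan sulfate co-receptor of fibronectin, fell from 37630 to 17539 (-1.09, adjusted p = 6.17e-05), the kinase PAK2 from 8147 to 4186 (-0.96, adjusted p = 2.35e-05) and FBLIM1, which encodes the filamin-binding migfilin, from 127 to 66.7 (-0.92, adjusted p = 0.0027). All adjusted p-values are those of limma, and the groups of each of these genes did not overlap. ITGB2, the other chain of the β2 receptor that ITGAX forms, was lower as well, but it may share reads with its antisense ITGB2-AS1. This pair was put together after the values were seen.

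Of 38 listed integrin ligands 34 were tested, and NPNT, VCAM1, CDH1 and POSTN were below the filter. Among those tested 2 rose (5.88%, against 8.23% of all genes) and 9 fell (26.5%, against 14.3%). COL3A1, a fibrillar collagen, rose from 34.7 to 130 normalized counts (log2 fold change 1.91, adjusted p = 0.0003), and ICAM1, the ligand of β2 integrins, whose row is shared with ICAM4, fell from 6142 to 2158 (-1.50, adjusted p = 1.63e-05). LAMB3, the β3 chain of laminin 332, fell from 54418 to 27077 (-1.0, adjusted p = 2.67e-05), next to the lower level of its receptor subunit ITGA3. SVEP1, a ligand of α9β1, fell from 119 to 54.7 (-1.12, adjusted p = 0.0008), and CCN2, a matricellular ligand of αv integrins listed as CTGF, from 4536 to 2210 (-1.02, adjusted p = 0.0005, limma). The abundant ligands fibronectin (FN1, log2 fold change -0.06, adjusted p = 0.62) and the collagen chain COL1A1 (-0.18, adjusted p = 0.17) did not pass, and both were named after their values were seen.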

How the data were processed

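RNA-seq of polyA RNA covered 3 si-CTRL and 3 si-NEK2 libraries of MDA-MB-231 cells. The authors deposited a gene signal, reads per gene over the library's DESeq2 size factor, called normalized count here, with FAST DB gene models and hg19 coordinates, replicates not pooled. The submitters' processing notes name STAR 2.4.0, FastQC, Picard, SAMtools and DESeq2, while the counter and its strand setting are not given in the sources used here. In 100% of values the deposited signal was a whole number of reads (tolerance 0.01 read), and 1 read was worth 0.818 to 1.25 normalized counts. All 6 value columns were used.

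Rows were matched by symbol, and the highest mean was kept where several matched. All rows with a mean of at least 10 were fitted with limma 3.58.1 (R 4.3.3, lmFit and eBayes with trend) on log2(value + 1), and a gene was called at p of 0.05 or less with a fold change of 1.5 or more, thresholds taken from the study. Adjusted p-values (Benjamini-Hochberg) cover all 18717 tested rows. Sums were compared by exact permutation over libraries. The script was tested on simulated data.

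Members and lists were chosen with earlier results of these data known. Every member is accounted for, with all libraries for called members and for the most abundant of each role, and in the other lists the 5 largest changes among called genes with an adjusted p of 0.05 or less and groups that do not overlap are named. NEK2 and overlapping genes with reads are also given. The alternatives comprised other pseudocounts (0.1, 5), other filters (none, a mean of 50), eBayes without trend, upper quartile, equal total and quantile scaling, a replicate block, leaving out each library, adjusted p, a fold threshold of 2, and tests of the recovered reads by edgeR 4.0.16 (TMM, quasi-likelihood) or DESeq2 1.42.0.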

Additional observations from a re-analysis of the deposited data

How the results depend on the processing

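Of the 41 tested members 35 kept their direction under all 17 alternative fits, and 8 of the 10 called members stayed called wherever they were tested, the exceptions being ITGA2 under equal total and quantile scaling and ITGB8 without si-CTRL replicate 1. ITGA9 was not tested at a mean of at least 50. Of the 27 members past an adjusted p of 0.05 by limma, 18 stayed past it with each library left out and 9 did not. These 9 were the called ITGB8 and ITGA9 and, not called, ITGA1, ITGB4, ITGB5, FERMT1, PXN, TGFB1I1 and LPP. Of the 18, PARVA, PTK2 and VCL did not stay past it under all of the other alternative settings. A fold change of at least 2 left 1 higher and 2 lower members, 1 higher and 2 lower of the other adhesion genes, and 1 higher and 4 lower ligands, by its stricter threshold. The share of all genes at this threshold was not counted, so that these counts cannot be set against it. Equal total scaling left 2 higher and 11 lower among the other adhesion genes, and 941 higher and 3479 lower among all 18724 genes tested in that fit. The difference of the summed α signal (si-NEK2 minus si-CTRL, 11093 normalized counts) was -3932 after upper quartile scaling, -18210 after equal total scaling and -33577 after quantile normalization, and 3088 to 23664 with each library left out. That of the summed adaptors was -7999 to 2218 with each library left out, above 0 without si-CTRL replicate 1 alone. Small fold changes that turned sign were those of ITGA5 (-0.0088 after upper quartile scaling, -0.071 after equal total scaling, -0.19 after quantile normalization) and, with quantile normalization, of ITGA7 (0.0083), ITGB6 (0.055), PTK2B (0.13) and TNS1 (0.017). With each library left out PTK2B ranged from -0.037 to 0.041 and BCAR3 from -0.066 to 0.044. The cause of these changes was not tested.

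Libraries with the same replicate number did not deviate together (correlations of -0.091, 0.0469 and -0.147). These values gave no sign of a pairing by number, but correlations this weak cannot exclude one. With the replicate number as a block 5 members were higher and 5 lower, as were 6 and 9 of the other adhesion genes and 2 and 9 of the ligands. Among all 18717 tested genes 1499 were then higher and 2585 lower. Precision is limited by 3 libraries per group and, for ITGA9 and ITGB7, by few reads.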
